A study of Mus musculus with 6 samples.

Results

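Growing axons end in a motile growth cone, and a small set of abundant neuronal phosphoproteins acts there on the membrane, the actin network and the microtubules. Gap43, Basp1, Marcks and Marcksl1 are lipid-anchored at the inner face of the plasma membrane, are phosphorylated by protein kinase C or bind calmodulin, and are linked to local actin assembly, while Gprin1 binds activated Gi/o alpha subunits at the membrane and promotes neurite outgrowth. The stathmins Stmn1, Stmn2, Stmn3 and Stmn4 bind tubulin heterodimers and lower microtubule stability until kinases phosphorylate them. These 9 genes were taken by name from the 47643 gene identifiers of the count tables, of which 15573 passed the filter on low counts, and all 9 members passed it. Each symbol matched 1 identifier, and the members held 676 to 71357 reads in a library.

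The cells came from dorsal root ganglia, the clusters of sensory neurons beside the spinal cord, of embryonic day 13 mice of the CD-1 strain. Both groups received a lentivirus that expresses a short hairpin RNA, and 3 libraries carried the hairpin against Uhrf1 (shUHRF1) while 3 carried the control hairpin (shControl). Uhrf1 encodes a protein that binds hemimethylated DNA and recruits the maintenance DNA methyltransferase. The stated purpose was to examine how transcription changes when Uhrf1 is knocked down in neurons that were not injured. The hairpin sequences, the number of hairpins per group and the promoter that drives them were not used here. Nothing in the labels ties a library to its own culture, so each p-value reflects only how these libraries vary, and that variation can be technical.

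The libraries held 15599776 to 22382813 reads in genes. Uhrf1 itself had 2, 1 and 5 reads in the shUHRF1 libraries numbered 1, 2 and 3, against 8, 6 and 5 reads in the shControl libraries. Its log2 fold change of -1.39 ± 0.62 (SE) fell short of the threshold (edgeR adjusted p = 0.141), so these counts are too low to check the knockdown closely. Rest, which encodes a repressor of neuronal genes, had 6.6, 3.12 and 5.86 CPM, the unit of read counts scaled to library size, in shUHRF1, against 0.639, 1.1 and 1.1 CPM in shControl, and its log2 fold change of 2.45 passed (edgeR adjusted p = 0.00414). Of 19 neuronal markers, 1 was called higher and 1 lower, with a median log2 fold change of -0.09. Their summed level was 19960, 24770 and 25250 CPM in the shUHRF1 libraries numbered 1, 2 and 3 and 26010, 25450 and 29820 CPM in the shControl libraries, so shUHRF1 replicate 1 held the lowest neuronal marker sum of the 6 libraries. Markers of other cell types moved with the group. For Schwann and satellite glia, 10 of 14 tested markers were called higher in shUHRF1 and 1 lower, and for fibroblasts and meninges 9 of 10 higher. For macrophages 4 of 7 and for endothelial and mural cells 2 of 7 tested markers were called higher. Over all tested genes, 1807 of 15573 were called higher. The lists held 15, 13, 12 and 10 markers, and those not tested could not be called. Of those called higher, 4 glial, 3 fibroblast, 2 macrophage and 1 endothelial marker had under 10 reads in every shControl library and passed the filter on low counts through shUHRF1, so these counts describe the libraries and support nothing further. In summed level, the glial list held 1098 to 2234 CPM in shUHRF1 and 1835 to 2612 CPM in shControl, the fibroblast list 1068 to 1300 CPM and 824.6 to 999.2 CPM, the macrophage list 16.03 to 43.28 CPM and 5.762 to 11.5 CPM, and the endothelial list 40.91 to 58.41 CPM and 43.15 to 46.06 CPM. No marker of these lists was at 0 reads in all shControl libraries. Measures of the libraries differed between the groups too, with overlap for the mitochondrial share. Mitochondrial genes took 2.92%, 2.04% and 1.89% of gene reads in shUHRF1, against 2.03%, 1.53% and 1.12% in shControl, and 25288 to 26115 genes had reads in shUHRF1, against 23310 to 24221 in shControl. The part of cell makeup and of these library measures in the results below was not tested, and in bulk RNA fewer cells of a type and less RNA per cell cannot be told apart.

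The first sequences shown are the coding stretches that carry the regulated serines of Marcks and Marcksl1, because phosphorylation there sets how these proteins bind the membrane or calmodulin. They were read from GENCODE M21 transcripts on GRCm38, 5′ to 3′ on the coding strand, and the capitals mark serine codons. The Marcks stretch lies in exon 2 on the minus strand at chr10:37136531-37136605 and holds codons 145 to 169, the effector domain, with 5 serine codons in capitals among 12 lysine codons. The Marcksl1 stretch is the best ungapped match to it, in exon 2 on the plus strand at chr4:129514885-129514959, and holds codons 86 to 110 with 3 serine codons in capitals and 10 lysine codons.
Marcks: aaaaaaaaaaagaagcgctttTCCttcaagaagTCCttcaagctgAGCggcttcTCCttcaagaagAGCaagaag
Marcksl1: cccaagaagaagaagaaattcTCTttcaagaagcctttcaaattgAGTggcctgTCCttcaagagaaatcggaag
The Marcks and Marcksl1 stretches were identical at 52 of 75 bases (69.3%), close to the 70.1% identity over 598 aligned bases of their whole coding sequences.

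The start of the stathmin coding sequences is shown because it tells the cytosolic member from the membrane-bound ones. The first 30 codons are given from the same source, and the capitals mark cysteine codons. In Stmn2, Stmn3 and Stmn4 a pair of cysteines near the start, with a serine between them, is palmitoylated. It holds the protein on Golgi-derived vesicles and growth cone membranes, whereas Stmn1 is soluble.
Stmn1: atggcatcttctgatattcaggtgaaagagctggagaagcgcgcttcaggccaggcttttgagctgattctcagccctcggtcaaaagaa
Stmn2: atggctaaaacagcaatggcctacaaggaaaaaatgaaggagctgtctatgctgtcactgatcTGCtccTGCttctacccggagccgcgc
Stmn3: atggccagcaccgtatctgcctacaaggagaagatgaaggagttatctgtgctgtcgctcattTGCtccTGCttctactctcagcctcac
Stmn4: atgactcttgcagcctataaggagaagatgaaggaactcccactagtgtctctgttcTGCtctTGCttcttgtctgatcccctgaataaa
The 30 codons of Stmn1 hold 0 cysteine codons and those of the other members hold 2 each. Over their whole coding sequences of 149 to 216 codons, the 6 pairs of stathmins were identical at 69.4% to 73.7% of aligned bases.

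Among the 9 members, 3 fell in shUHRF1, namely Gap43, Basp1 and Marcksl1, 0 rose and 6 were not called (edgeR's quasi-likelihood test, adjusted p below 0.05). All 9 had a negative log2 fold change, with a median of -0.31, although Marcks, Stmn1 and Stmn2 turned positive with upper-quartile scaling (0.01, 0.02 and 0.12). Over all tested genes the median was 0.02, and it was -0.10 over the 4341 genes that averaged at least 50 CPM, the range in which every member lay. The share of members called lower, 33.3%, stands beside 12.4% of all tested genes called lower and 22.7% of the genes at or above 50 CPM, while 24% of all tested genes were called in either direction. For 4 members every shUHRF1 library lay below every shControl library, which held for 22.3% of all tested genes. The count of members called was 1 in each of the fits that left out shUHRF1 replicate 3, shControl replicate 1 and shControl replicate 3. These shares rest on 9 genes, so nothing particular to the group is read from them. With upper-quartile scaling, which put the median over all genes at 0.14 on the log2 scale, the tested genes were called 2512 higher and 1378 lower, where the counts with TMM scaling were 1807 and 1928.

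**Figure D1:**
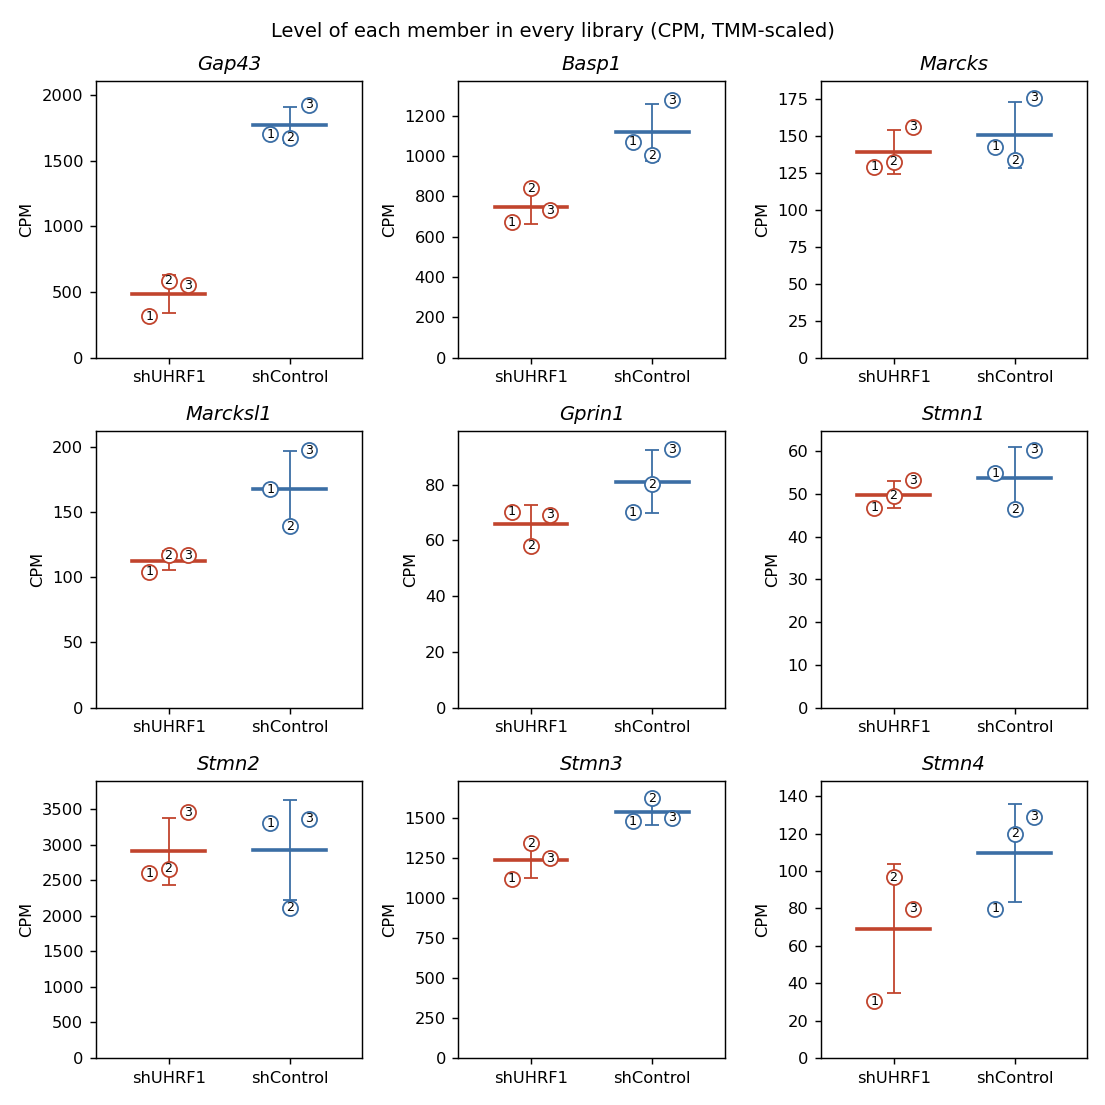
Level of each of the 9 members in CPM (linear axis from 0, 1 panel per gene), with each point a library marked by its replicate number, the thick bar the mean and the thin bar 1 SD (n = 3), shUHRF1 left of shControl. Gap43 sits at 315.3 to 584.8 CPM in shUHRF1 and at 1678 to 1928 CPM in shControl, while the points of Stmn2 overlap.

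Gap43 is the neuronal growth-associated protein that binds calmodulin until protein kinase C phosphorylates it, and it is a standard marker of growing axons. It lies on chromosome 16 from 42248442 to 42340651, minus strand (ENSMUSG00000047261.9). Its level was 315.3, 584.8 and 551.8 CPM in the shUHRF1 libraries numbered 1, 2 and 3, against 1705, 1678 and 1928 CPM in the shControl libraries. Every shUHRF1 library lay below every shControl library, by a gap wider than the range within either group. The means were 484 ± 147 CPM in shUHRF1 and 1770 ± 137.5 CPM in shControl (SD, n = 3 each), a log2 fold change of -1.87 ± 0.23 (SE) with a 95% interval of -2.40 to -1.34 and an edgeR adjusted p of 0.00181. The shUHRF1 mean corresponded to a fall of 72.7%. Only 0.921% of the genes at or above 50 CPM had a lower log2 fold change, and in shControl Gap43 was number 40 of all genes by mean CPM. The Gap43 counts rest on 7021 to 11392 reads in shUHRF1 and on 25918 to 40319 reads in shControl, so counting error is small beside the spread between libraries. Among the shUHRF1 libraries, replicate 1 was the lowest.

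Basp1 encodes a myristoylated protein, also called CAP-23 or NAP-22, that shares the growth cone membrane and the binding of calmodulin with Gap43. The gene lies on chromosome 15 from 25363277 to 25413764, minus strand (ENSMUSG00000045763.7). Its level was 673.2, 841.4 and 731.2 CPM in shUHRF1, against 1071, 1005 and 1277 CPM in shControl. The groups did not overlap, and the highest shUHRF1 library was replicate 2. The log2 fold change was -0.58 ± 0.14 (SE), a fall of 33.0%, with an edgeR adjusted p of 0.0222. That call was lost without shControl replicate 1 (adjusted p = 0.0577), shControl replicate 3 (0.0849) or shUHRF1 replicate 3 (0.0786).

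Marcks and Marcksl1 encode the myristoylated substrates of protein kinase C whose effector stretches are printed above, and 1 of the pair was called. Marcks lies on chromosome 10 from 37133375 to 37138920, minus strand (ENSMUSG00000069662.5), and had 129.1, 132.5 and 156.2 CPM in shUHRF1, against 142.7, 133.7 and 175.8 CPM in shControl. The groups overlapped, and replicate 3 was the highest library of each. Its log2 fold change was -0.11 ± 0.14 (SE), with a 95% interval of -0.44 to 0.21, and did not pass (edgeR adjusted p = 0.598). Marcksl1, on chromosome 4 from 129513581 to 129515985, plus strand (ENSMUSG00000047945.6), had 104.1, 116.8 and 116.8 CPM in shUHRF1, against 167.3, 139.2 and 197.1 CPM in shControl. Every shUHRF1 library was below every shControl library, and the shUHRF1 libraries lay close together. Marcksl1 fell by 32.9%, with a log2 fold change of -0.58 ± 0.14 (SE) and an edgeR adjusted p of 0.0241. The call was lost without shControl replicate 1 (adjusted p = 0.0666), shControl replicate 3 (0.0872), shUHRF1 replicate 1 (0.0544) or shUHRF1 replicate 3 (0.0642).

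Gprin1, the G protein-regulated inducer of neurite outgrowth, lies on chromosome 13 from 54736671 to 54749874, minus strand (ENSMUSG00000069227.4). It had 70.19, 58.0 and 69.26 CPM in shUHRF1, against 70.09, 80.14 and 92.69 CPM in shControl. The groups overlapped by a narrow margin, through shUHRF1 replicate 1 and shControl replicate 1. Its log2 fold change of -0.30 ± 0.14 (SE), with a 95% interval of -0.62 to 0.02, did not pass (edgeR adjusted p = 0.159).

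**Figure D2:**
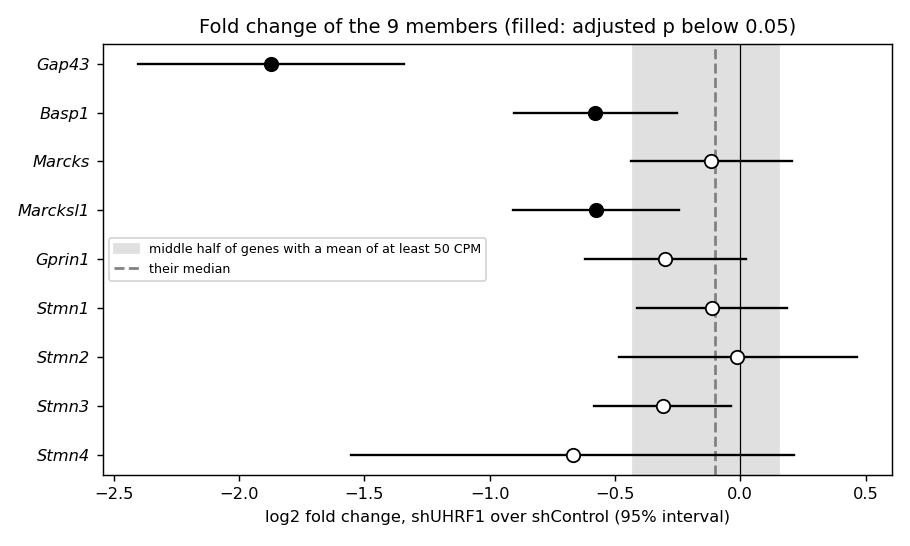
Log2 fold change of each member, shUHRF1 over shControl (horizontal axis), with its 95% interval from the edgeR fit; filled points have an adjusted p below 0.05. The grey band is the middle 50% of genes at or above 50 CPM, from -0.43 to 0.16, with their median at -0.10 as a dashed line, and the interval of Gap43 lies wholly left of it.

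None of the 4 stathmins was called by edgeR, DESeq2 or limma-voom without the replicate block, and Stmn3 alone had an unadjusted edgeR p below 0.05 there, at 0.0304. With the block Stmn4 was called, as given below. Stmn2, also called SCG10, is the neuronal stathmin of growth cones and regenerating sensory axons. It lies on chromosome 3 from 8509360 to 8561606, plus strand (ENSMUSG00000027500.10), and was number 17 of all genes by mean CPM in shControl. Its level was 2601, 2666 and 3456 CPM in shUHRF1, against 3306, 2117 and 3365 CPM in shControl. The groups overlapped fully, with the lowest of the 6 values in shControl replicate 2 and the highest in shUHRF1 replicate 3. The log2 fold change of -0.01 ± 0.21 (SE) was not called (edgeR adjusted p = 0.979). Its 95% interval of -0.49 to 0.46 leaves room for a fold between 0.714 and 1.38, so the missing call does not show that Stmn2 was unchanged. The interval is not a limit of detection, since calls use p-values adjusted over all tested genes.

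Stmn3, the SCG10-like protein, lies on chromosome 2 from 181306459 to 181314500, minus strand (ENSMUSG00000027581.12). It had 1122, 1344 and 1251 CPM in shUHRF1, against 1483, 1624 and 1502 CPM in shControl. The groups did not overlap, yet the log2 fold change of -0.31 ± 0.12 (SE), with a 95% interval of -0.58 to -0.04, did not pass after adjustment (edgeR adjusted p = 0.094). Of the 4 members whose groups did not overlap, Stmn3 was the one that was not called.

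Stmn1, the ubiquitous stathmin or oncoprotein 18, lies on chromosome 4 from 134468320 to 134473843, plus strand (ENSMUSG00000028832.11). It had 46.75, 49.52 and 53.18 CPM in shUHRF1, against 54.76, 46.35 and 60.31 CPM in shControl. The groups overlapped, and its log2 fold change of -0.11 ± 0.13 (SE) did not pass (edgeR adjusted p = 0.577). Of the 1956 words of 50 bases in its transcripts, 351 also occur in Gm11223, a copy that had 38, 37 and 65 reads in shUHRF1 and 48, 40 and 61 reads in shControl, so the Stmn1 level may be short of the reads that could not be placed.

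Stmn4, the RB3 stathmin, had the largest standard error of the members. It lies on chromosome 14 from 66344296 to 66361680, plus strand (ENSMUSG00000022044.14), and had 30.36, 96.74 and 79.77 CPM in shUHRF1, against 79.79, 119.8 and 128.9 CPM in shControl. In both groups replicate 1 was the lowest, and the groups overlapped. The log2 fold change of -0.67 ± 0.38 (SE), with a 95% interval of -1.55 to 0.22, did not pass (edgeR adjusted p = 0.245). With the replicate number as a block it was -0.79 and passed (edgeR adjusted p = 0.0252), the one member whose call the block changed.

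Replicate 1 was the lowest shUHRF1 library for 8 of the 9 members, all but Gprin1, and the lowest of all 6 libraries for 6 of them. That library also held the lowest summed level of neuronal markers, given above. Without that library Gap43 was still called lower, at a log2 fold change of -1.64, and so was Basp1, while Marcksl1 lost its call as given above.

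Over the 19 alternative settings, Gap43 was called in 18, Basp1 in 14, Marcksl1 in 13 and Stmn4 in 2, and the other 5 members in 0.

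**Figure D3:**
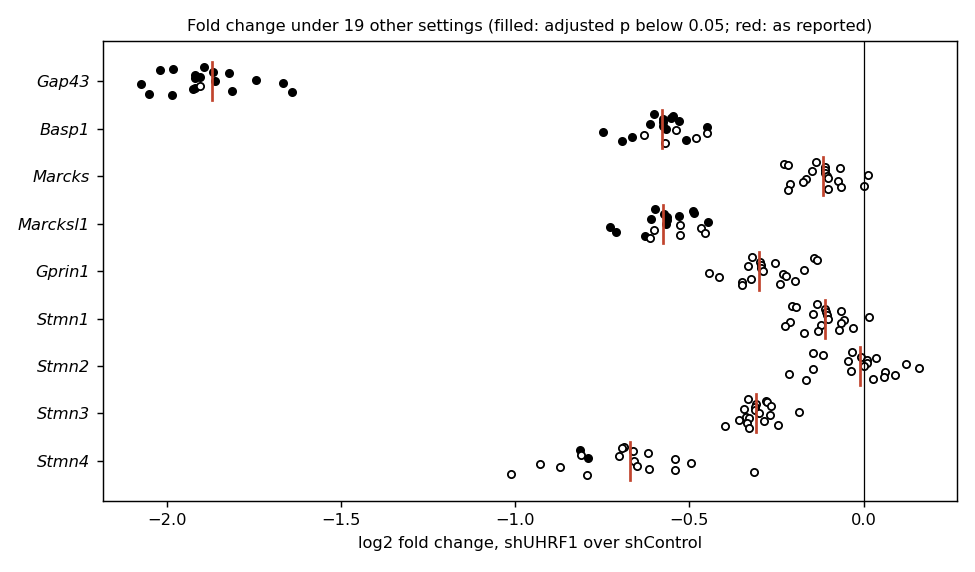
Log2 fold change of each member, shUHRF1 over shControl, under 19 alternatives (each point an alternative, filled where its adjusted p is below 0.05; the red line is the reported value). Gap43 stays between -2.07 and -1.64, and the points of Stmn2, Stmn1 and Marcks lie on both sides of 0.

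Levels were compared between genes as CPM per kilobase of exon, with the exons of all transcripts joined. In shUHRF1 the order was Stmn3 at 1091, Stmn2 at 519, Basp1 at 372.6, Gap43 at 317.8, Marcksl1 at 70.14, Stmn4 at 35.99, Marcks at 34.4, Stmn1 at 25.92 and Gprin1 at 15.14 CPM per kilobase. In shControl the order was Stmn3 at 1352, Gap43 at 1162, Basp1 at 556.3, Stmn2 at 522.9, Marcksl1 at 104.6, Stmn4 at 57.15, Marcks at 37.24, Stmn1 at 28.0 and Gprin1 at 18.62 CPM per kilobase. With the joined exons, Gap43 stood above Basp1 and Stmn2 in shControl. It stood below both means in shUHRF1, where its libraries overlapped those of Basp1. Stmn2 stood above Basp1 in shUHRF1, and the pair overlapped in shControl, and Stmn4 overlapped Marcks in both groups. The place of Stmn2 against Stmn3, Gap43 and Basp1 depends on the length used, and so does that of Marcks against Stmn1. With the longest protein-coding transcript in place of the joined exons, Stmn2 was first, at 1403 CPM per kilobase in shUHRF1 and 1413 CPM per kilobase in shControl. Its shControl libraries overlapped those of Stmn3. Gap43 was then below the Stmn2 mean in both groups, at 340.8 CPM per kilobase in shUHRF1 and 1247 CPM per kilobase in shControl. Basp1, at 403.5 and 602.5 CPM per kilobase, no longer overlapped Stmn2 in shControl.

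The makeup of the membrane phosphoprotein family was computed as each gene's share of the family's summed CPM per kilobase. Gap43 held 31.6%, 41.7% and 42.4% of it in shUHRF1, against 61.9%, 63.3% and 60.6% in shControl. Basp1 held 51.2%, 45.4% and 42.6% in shUHRF1, against 29.5%, 28.7% and 30.4% in shControl. Gap43 was thus the leading member in every shControl library, and Basp1 was the leading member in every shUHRF1 library, by a margin of under 1 percentage point in replicate 3. Marcksl1 averaged 8.78% in shUHRF1 and 5.54% in shControl, Marcks 4.31% and 1.98%, and Gprin1 1.93% and 0.99%. The summed level of the family was 1291.8, 1733.5 and 1625.2 CPM in shUHRF1, against 3156.3, 3035.5 and 3671.0 CPM in shControl. The stathmin sum overlapped between the groups, at 3799.7, 4156.8 and 4839.9 CPM in shUHRF1 and 4922.7, 3907.7 and 5055.5 CPM in shControl. Stmn3 held 65.3% of the stathmin family in shUHRF1 and 69.1% in shControl, and Stmn2 31.0% and 26.6%. With the coding transcript length Stmn2 held 54.0% in shUHRF1 and 48.3% in shControl.

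**Figure D4:**
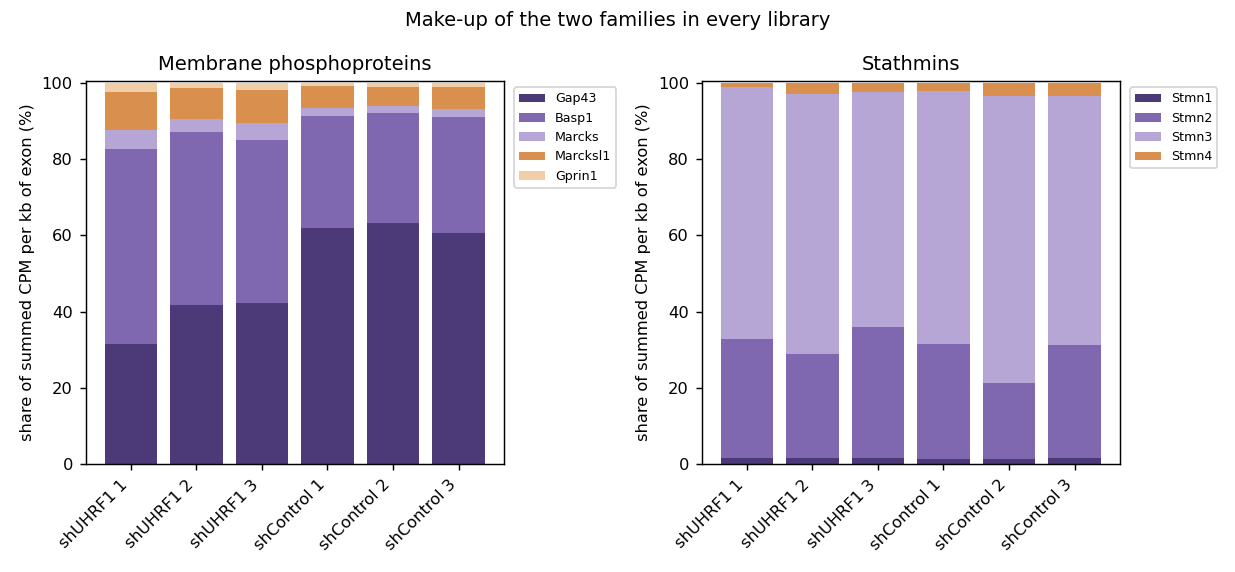
Share of each gene in its family's summed CPM per kilobase (vertical axis, percent), stacked for each of the 6 libraries, with the shUHRF1 libraries left of the shControl libraries. Gap43 takes 31.6% to 42.4% of the membrane phosphoprotein family in shUHRF1 and 60.6% to 63.3% in shControl, while Stmn3 leads the stathmin family in every library with the joined exons as length.

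Ratios between 2 members of a library compare them free of the scaling between libraries, and 5 such ratios were tested with two-sided exact permutation tests, for which 3 against 3 libraries allow no p below 0.1. The log2 ratio of Gap43 to Basp1 was -1.09, -0.53 and -0.41 in shUHRF1, against 0.67, 0.74 and 0.60 in shControl. Gap43 had fewer reads than Basp1 in every shUHRF1 library and more in every shControl library, a difference of -1.34 (exact permutation p = 0.1, adjusted over 5 ratios 0.25). The log2 ratio of Marcks to Marcksl1 was 0.31, 0.18 and 0.42 in shUHRF1, against -0.23, -0.06 and -0.17 in shControl, so Marcks had more reads than Marcksl1 in every shUHRF1 library and fewer in every shControl library, a difference of 0.45 (exact permutation p = 0.1, adjusted 0.25). These read ratios are not scaled to gene length. Per kilobase of exon, Marcksl1 was above Marcks in both groups, at 70.14 against 34.4 CPM in shUHRF1 and 104.6 against 37.24 CPM in shControl. The stathmin ratios to Stmn2 overlapped between the groups. The difference was -0.11 for Stmn1 (exact permutation p = 0.6), -0.32 for Stmn3 (0.4, adjusted 0.5) and -0.81 for Stmn4 (0.2, adjusted 0.333). Within the pairs numbered 1, 2 and 3, shUHRF1 minus shControl was -1.05, -0.64 and -0.73 for Stmn4 to Stmn2 and -0.06, -0.61 and -0.30 for Stmn3 to Stmn2. Both ratios were lower in shUHRF1 in all 3 pairs (exact sign-flip permutation p = 0.25 each, the smallest that 3 pairs allow). Gap43 to Basp1 (-1.76, -1.27 and -1.0) and Marcks to Marcksl1 (0.54, 0.24 and 0.58) also kept their sign in all 3 pairs, with the same p. Stmn1 to Stmn2 did not (0.12, -0.24 and -0.22). A ratio of Gap43 to Stmn2, chosen after their values were seen, was 0.121, 0.219 and 0.16 in shUHRF1 and 0.516, 0.792 and 0.573 in shControl, and these CPM ratios are given without a test. Ratios within a library show unequal change and not which gene moved.

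**Figure D5:**
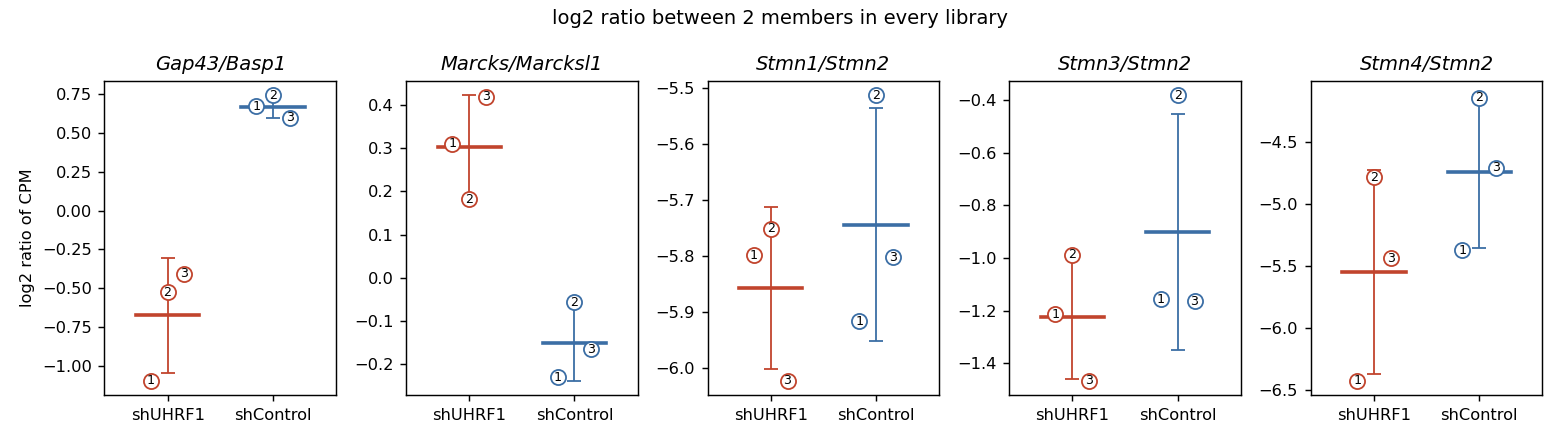
Log2 ratio of the CPM of 2 members within each library (vertical axis, 1 panel per ratio, each with its own range), with each point a library, the thick bar the mean and the thin bar 1 SD (n = 3), shUHRF1 left of shControl. The ratios of Gap43 to Basp1 and of Marcks to Marcksl1 lie on opposite sides of 0 in the groups, and the stathmin ratios overlap. The ratios are not scaled to gene length.

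The genes whose profile over the 6 libraries was most like that of Gap43 were sought among 4300 protein-coding genes at or above 50 CPM, by the root mean square difference of centred log2 CPM. The nearest were Igsf8, an immunoglobulin superfamily membrane protein, at 0.114, Trib2, a Tribbles pseudokinase, at 0.116, and Gna12, a G12 alpha subunit, at 0.118. Igsf8 had 55.8, 88.6 and 83.8 CPM in shUHRF1, against 288, 239 and 281 CPM in shControl. The nearest to Stmn2 were Micu3, a mitochondrial calcium uptake protein, at 0.105, Sept5, a septin, at 0.11 and Hsp90ab1, a chaperone, at 0.116. Hsp90ab1 had 1670, 1490 and 1820 CPM in shUHRF1, against 1700, 1320 and 1920 CPM in shControl, with overlapping groups. Likeness over the same 6 libraries chose these genes, so features they share with Gap43 or Stmn2 are no separate result.

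Genes that act on the members, their relatives and other growth cone genes were counted from 7 lists of 104 genes, of which 98 were tested, with 6 called higher and 28 lower. Over all tested genes 12.4% were called lower, and 22.7% of those at or above 50 CPM, so 28 of 98 is not read as particular to these lists. Without shControl replicate 3, 21 of them were called, against 34 with all libraries. The kinases and phosphatase of the Gap43 and Marcks serines, protein kinase C and calcineurin, had 1 of 12 tested members called higher and 4 lower, with a median log2 fold change of -0.11. Prkca, the classical kinase of both proteins, fell to 123 CPM in shUHRF1, against 256 CPM in shControl (log2 fold change -1.05, edgeR adjusted p = 0.0111). Prkcz, the atypical zeta isoform, fell to 39.5 CPM, against 108 CPM (log2 fold change -1.45, edgeR adjusted p = 0.00222), and Ppp3r1, the regulatory subunit of calcineurin, fell to 86.6 CPM, against 154 CPM (-0.83, edgeR adjusted p = 0.00625). Ppp3ca, 1 of the catalytic subunit genes of calcineurin, fell to 357 CPM in shUHRF1, against 708 CPM in shControl. That call was lost without shUHRF1 replicate 3 (edgeR adjusted p = 0.0875), shControl replicate 1 (0.0799) or shControl replicate 3 (0.0744). The other catalytic subunit genes of calcineurin in the list were not called. Prkch, the eta isoform, rose to 21.2 CPM, against 7.99 CPM, a call lost without shControl replicate 1 (edgeR adjusted p = 0.0566).

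Of 5 tested calmodulin and small IQ motif genes, 1 was lower and 0 higher, with a median log2 fold change of -0.34. Calm3, 1 of the calmodulin genes, fell to 2140 CPM in shUHRF1, against 3480 CPM in shControl (log2 fold change -0.70, edgeR adjusted p = 0.00794). Pcp4 had 2.84 CPM in shUHRF1 and 4.63 CPM in shControl, and Pcp4l1 28.6 CPM and 15.8 CPM, both not called. Of 12 enzymes that attach or remove the lipid anchors, 3 were lower and 1 higher, with a median of -0.22. The thioesterase Abhd17a had 64.7 CPM in shUHRF1 and 104 CPM in shControl (log2 fold change -0.68), and the palmitoyltransferase Zdhhc3 76.8 CPM and 111 CPM (-0.53). The palmitoyltransferase Zdhhc7 (-0.73) lost its call without shUHRF1 replicate 3 (edgeR adjusted p = 0.0661), shControl replicate 1 (0.0653) or shControl replicate 3 (0.0649). The thioesterase Lypla1, higher at a log2 fold change of 0.59, kept its call only in the fit without shUHRF1 replicate 2, and its adjusted p was 0.0675 to 0.118 in the other fits that left out 1 library. Nmt1, an N-myristoyltransferase, had 173 CPM in shUHRF1 and 192 CPM in shControl and did not pass (edgeR adjusted p = 0.32).

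The list of kinases of stathmin serines also holds the activating subunit of Cdk5. Of its 11 tested genes, 4 were lower and 0 higher, with a median log2 fold change of -0.44. Camk4, the calcium/calmodulin kinase IV, fell to 358 CPM in shUHRF1, against 920 CPM in shControl (log2 fold change -1.36, edgeR adjusted p = 0.0075). The other 3 calls were lost in some of the fits that left out 1 library. Mapk9, a JNK, was at -0.52 and had adjusted p values of 0.0606 and 0.0617 without shControl replicate 1 and 3. Prkaca, a catalytic subunit of protein kinase A, was at -0.57 and had 0.0517, 0.0659 and 0.0796 without shUHRF1 replicate 3 and shControl replicates 1 and 3. Pak1, a p21-activated kinase, was at -0.52 and had 0.0623, 0.0927, 0.0611 and 0.0859 without shUHRF1 replicate 3 and shControl replicates 1, 2 and 3. With the replicate block 6 genes of this list were called lower.

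Of 8 RNA-binding regulators of Gap43 and Stmn2 mRNA, 1 was higher and 0 lower, with a median log2 fold change of 0.06. Elavl4 (HuD), which binds and stabilises Gap43 mRNA, had 425 CPM in shUHRF1 and 306 CPM in shControl and did not pass (log2 fold change 0.47, edgeR adjusted p = 0.0563). It passed with the replicate block (0.48, edgeR adjusted p = 0.0246) and in the fit without shControl replicate 1 (0.0383). Igf2bp1, the zipcode-binding protein, rose to 7.12 CPM in shUHRF1, against 1.76 CPM in shControl (log2 fold change 2.02, edgeR adjusted p = 0.0237), and kept its call in 2 of the 6 fits that left out 1 library, those without shUHRF1 replicate 2 or shControl replicate 2. Its adjusted p in the other fits was 0.0526 to 0.0815. Tardbp (TDP-43), whose loss disrupts STMN2 splicing in human neurons, had a log2 fold change between 0.04 and 0.25 over the fits that left out 1 library, and was not called in any of them.

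Of the other Gprin genes and the Gi/o alpha subunits, 4 of 7 were lower and 1 higher, with a median log2 fold change of -0.68. Gnai3 fell to 54.3 CPM in shUHRF1, against 166 CPM in shControl (log2 fold change -1.61), and Gnai2 (-0.95) and Gnai1 (-0.85) were also lower. Gprin3, a relative of Gprin1, rose to 85.6 CPM in shUHRF1, against 44.7 CPM in shControl (log2 fold change 0.94). Gnao1, the most abundant of the list, had 579 CPM in shUHRF1 and 748 CPM in shControl, and was called only without shControl replicate 2 (edgeR adjusted p = 0.042). The called Gnai3, Gnai2, Gnai1 and Gprin3 kept their calls in each fit that left out 1 library. Of 43 other growth cone genes of the cytoskeleton and membrane, 12 were lower and 2 higher, with a median of -0.33. Mapt, the microtubule-associated protein tau, had 485 CPM in shUHRF1 and 2300 CPM in shControl (log2 fold change -2.25), Ezr, the membrane-actin linker ezrin, 16.9 CPM and 89.1 CPM (-2.40), and the small GTPase gene Rhoa 32.5 CPM and 82.4 CPM (-1.34). Gpm6b, a proteolipid family gene that glia also express, rose to 16.2 CPM in shUHRF1, against 3.14 CPM in shControl (log2 fold change 2.37). Map1b, the microtubule-associated protein with the highest level in the list, had 7110 CPM in shUHRF1 and 6340 CPM in shControl and did not pass. Of the 23 called genes named from the 7 lists, 15 kept their call in all 6 fits that left out 1 library.

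Promoter windows from 250 bases before to 50 after the start were found in the RefSeq table of GRCm38.p6 for 4 of the 9 members, and are shown because the protein whose gene was targeted acts through methylation at CpG sites. They are printed in the gene's direction with CpG sites in capitals. The Basp1 window at chr15:25413715-25414014, minus strand, held 38 CpG sites, and 95% of the 32851 windows of the table held fewer. The Stmn3 window at chr2:181314451-181314750, minus strand, held 6.
Basp1: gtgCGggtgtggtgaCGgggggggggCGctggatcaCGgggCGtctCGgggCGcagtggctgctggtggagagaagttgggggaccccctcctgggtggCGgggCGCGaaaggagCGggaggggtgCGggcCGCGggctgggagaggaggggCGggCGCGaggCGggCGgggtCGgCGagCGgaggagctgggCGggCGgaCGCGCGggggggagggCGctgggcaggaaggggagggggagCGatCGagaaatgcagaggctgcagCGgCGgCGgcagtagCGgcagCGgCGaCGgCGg
Stmn3: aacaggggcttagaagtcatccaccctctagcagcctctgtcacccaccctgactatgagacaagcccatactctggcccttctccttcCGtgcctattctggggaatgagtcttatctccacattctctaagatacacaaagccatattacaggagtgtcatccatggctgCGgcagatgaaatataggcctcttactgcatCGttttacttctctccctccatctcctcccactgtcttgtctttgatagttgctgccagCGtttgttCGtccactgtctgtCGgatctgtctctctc
The Marcksl1 window held 22 CpG sites and the Gprin1 window 27, while the median over all windows was 7. Of these 4 genes, the called ones, Basp1 and Marcksl1, had 38 and 22 sites, and those not called, Gprin1 and Stmn3, had 27 and 6. Methylation was not measured in these libraries. The letters CAGCACC and GGACAG, the cores of both parts of the REST element, were searched on both strands. They occurred in 7.14% and 22.2% of all windows, and 0 of the 4 member windows held either. Gap43, Marcks, Stmn1, Stmn2 and Stmn4 had no window and were not searched, and neither was sequence outside the windows.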

How the data were processed

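Total RNA was measured in 6 libraries, 3 shUHRF1 and 3 shControl. Per the labels' protocols, column-purified, DNase-treated RNA was depleted of ribosomal RNA and made into cDNA with a SMARTer kit. For each library the authors deposited a table of raw read counts per gene, whole numbers without normalization. The build mm10 and the tools STAR, HTSeq, FastQC and DESeq2 are named, without versions, per the submitters' processing notes. The annotation and strand setting of the counting are not given in these sources, so reads of genes that overlap on opposite strands cannot be told apart. The 5 summary lines entered neither library sizes nor tests. Of all entries, 8.43% to 17.18% were reads outside genes, 2.12% to 2.27% were ambiguous and 30.5% to 37.28% were not uniquely placed.

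Identifiers without their version were matched to GENCODE M21 on GRCm38 for symbols, coordinates and exon lengths, with 47224 matched and 419 not. The groups were compared in edgeR 4.0.16 (R 4.3.3) with filterByExpr, TMM factors and the two-sided quasi-likelihood F test without a block, and Benjamini-Hochberg adjustment ran over all 15573 tested genes at a threshold of 0.05. CPM use TMM-scaled library sizes. Uhrf1 did not pass the filter and was fitted in the same model with Uhrf1 kept. Permutation tests used SciPy 1.17.1. The precision of each value is limited by 3 libraries per group and, for genes of few reads, by counting error.

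The members, the lists and the rule for named genes were chosen with earlier results of these data known. The rule named all 9 members, Uhrf1, Rest, the 4 members of each partner list with the smallest p and its most abundant member, and the 3 genes nearest to Gap43 and to Stmn2. A gene named by this rule is left out of the text, though the list counts hold it. Alternatives were DESeq2 1.42.0, limma-voom 3.58.1, RLE and upper-quartile factors, other filters and thresholds, no mitochondrial or small RNA genes, a GC and length offset, the replicate block, and each library or pair left out. Using the longest protein-coding transcript for lengths was chosen after seeing the data. Same-numbered libraries deviated from their group means together, with correlations of 0.325, 0.401 and 0.4, against -0.284 to -0.002 for other pairs. Deviations from a group mean cancel out, so positive values for some pairs push the others down. The main fit and the main permutation tests did not use the numbers as pairs. Only the replicate block, the fits without a pair and the comparisons within numbered pairs did. This pairing is inferred from the data, since no label explains the numbers.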

Additional observations from a re-analysis of the deposited data

How the results depend on the processing

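With the replicate number as a block, 4820 genes were called, against 3735 without it, and 4 members, against 3. The block added Stmn4 and changed no other call of a member. At an adjusted p below 0.01, 1434 genes and 1 member were called, and the offset for GC content and length with the block called 52 partner genes, against 34. With 1 library or pair left out, the counts ran from 184 to 3888 genes, 0 to 3 members and 3 to 37 partner genes. Gap43 lost its call in the fit without the libraries numbered 3 (edgeR adjusted p = 0.06) and in no other. Without the libraries numbered 1 or 3, the adjusted p was 0.0912 and 0.248 for Basp1 and 0.122 and 0.204 for Marcksl1. The cause was not tested. With the coding transcript length, Stmn2 held 54.0% of the stathmins in shUHRF1 and 48.3% in shControl. The sign turned for uncalled values near 0. Marcks was at 0.014 with upper-quartile factors and -0.216 to 0.002 with 1 library left out, and Stmn1 at 0.017 with upper-quartile factors. Stmn2 was at 0.009 with limma-voom and with the block, 0.121 with upper-quartile factors, 0.037 with the stricter filter, 0.001 without mitochondrial and small RNA genes, and -0.214 to 0.158 with libraries left out. The difference in the log2 ratio of Stmn1 to Stmn2 ran from -0.199 to 0.002 with 1 library left out, that of Stmn3 from -0.453 to -0.062, that of Stmn4 from -1.188 to -0.37, that of Gap43 to Basp1 from -1.478 to -1.134, and that of Marcks to Marcksl1 from 0.397 to 0.515.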
